A study of Mus musculus with 6 samples.

Results

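The genes of the proteasome were followed in H3K4me3 profiles of CD8+ tumour-infiltrating lymphocytes from Atg5 knockout and wild-type mice. Members were all protein-coding genes of the GRCm38 RefSeq gene table whose symbol starts with Psma, Psmb, Psmc, Psmd or Psme and a number, which gave 46 of 21887 genes. The cells had been taken from e0771 tumours, a mammary tumour line, grown in C57BL/6 mice. In the knockout group Atg5, a gene needed to build autophagosomes, had been deleted by Cre recombinase. The other group was labelled wild type. The sources used here do not give the Cre driver, the age of the mice or any pooling of animals. Each genotype had 1 H3K4me3 library, so no difference below has a replicate check and no test between genotypes was possible.

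The proteasome is the barrel-shaped protease that degrades proteins tagged with ubiquitin. Its core is built from alpha rings (Psma genes), which gate the barrel, and beta rings (Psmb genes), which hold the cutting sites. A cap of ATPases (Psmc genes) and other subunits (Psmd genes) recognises and unfolds the substrates, while the PA28 and PA200 activators (Psme genes) open the barrel in another way. In lymphocytes, and in other cells exposed to interferon gamma, the catalytic subunits encoded by Psmb8, Psmb9 and Psmb10 replace those encoded by Psmb5, Psmb6 and Psmb7. The resulting immunoproteasome cuts peptides that suit presentation on MHC class I. H3K4me3, a trimethylated lysine of histone H3, gathers around transcription start sites in use, and broad domains of it are often seen at genes typical of a cell type.

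The data are lists of regions in which the authors' peak caller found more H3K4me3 reads than expected from the local background. The knockout list held 46565 regions on the chromosomes, spanning 73.1 Mb, and the wild-type list 48546 regions, spanning 71.3 Mb. Genes with any region within 1 kb of the 5′ end were counted as marked. Covered length is how much of the window reaching 2.5 kb to either side of the 5′ end, in bp, lay under regions, and a difference of at least 500 bp was counted as longer or shorter. Fold values are the authors' own, compare the summit of a region with a background, and serve only to describe regions within 1 list. Whether that background came from the same library or from the input is not given. Library depth, on which the edges of a region depend, is unknown. A smaller share of cells that carry a mark and less of the mark per cell cannot be told apart in such bulk data.

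At the 5′ end of Atg5 itself (chromosome 10, 44268322) 2705 bp were covered in knockout cells and 2926 bp in wild-type cells, which checks nothing, since the deleted part of the gene is not stated. The labelled cell type was checked with markers. All 10 T cell markers were marked in the knockout list, against 3 of 10 in the wild-type list. Their summed covered length was 42780 bp in knockout cells and 6933 bp in wild-type cells, with none at 0 bp in the knockout and 4 at 0 bp in the wild type. For Cd8a and Cd8b1 together the sums were 8821 and 290 bp, in the same order, with Cd8a at 0 bp in the wild type. The CD4 markers Cd4 and Foxp3 summed to 1309 bp in knockout cells and 1913 bp in wild-type cells, with Foxp3 at 0 bp in both, and the 5 B cell markers to 2787 and 582 bp, with 3 and 4 of them at 0 bp. The 10 myeloid markers, with 7 marked in knockout cells and 10 in wild-type cells, summed to 13596 bp in knockout cells and 17183 bp in wild-type cells. The 6 epithelial and tumour markers summed to 12081 bp in knockout cells and 8265 bp in wild-type cells, and the 6 endothelial and fibroblast markers to 10824 and 14240 bp. The T cell label therefore had its markers in the knockout library, whereas the wild-type library lacked most of them, and both held marks of other cell types. Any part of this in the results below was not tested.

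The stretches before the starts of the immunoproteasome genes, of the PA28 genes and of a pair of the replaced subunits are shown here. Each runs 5′ to 3′ on the strand of its gene and ends 1 base before the start listed by RefSeq (GRCm38.p6). Each holds 250 bases, except that of Psmb9, which holds 225 bases so as to stop before the first base of Tap1. All 7 stretches lay wholly under a region in both lists, so the differences in covered length at these genes lay outside them. Capitals mark matches, on either strand, to any of the 5 motifs given after the sequences.
Psmb8, chr17:34197945-34198194, plus strand: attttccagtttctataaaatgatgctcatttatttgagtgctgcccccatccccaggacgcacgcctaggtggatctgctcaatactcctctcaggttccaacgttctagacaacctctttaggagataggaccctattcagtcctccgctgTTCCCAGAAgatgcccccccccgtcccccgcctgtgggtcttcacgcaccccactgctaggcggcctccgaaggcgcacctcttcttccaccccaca
Psmb9, chr17:34187331-34187555, minus strand: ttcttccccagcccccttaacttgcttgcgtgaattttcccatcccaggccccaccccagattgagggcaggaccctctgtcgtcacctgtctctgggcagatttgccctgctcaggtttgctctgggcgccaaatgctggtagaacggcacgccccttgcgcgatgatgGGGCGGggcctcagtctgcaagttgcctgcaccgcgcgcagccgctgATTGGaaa
Psmb10, chr8:105938393-105938642, minus strand: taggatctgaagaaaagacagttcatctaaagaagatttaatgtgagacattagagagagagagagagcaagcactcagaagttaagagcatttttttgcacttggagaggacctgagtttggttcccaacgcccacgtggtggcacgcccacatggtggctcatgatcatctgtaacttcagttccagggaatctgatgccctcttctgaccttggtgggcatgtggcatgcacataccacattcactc
Psme1, chr14:55578244-55578493, plus strand: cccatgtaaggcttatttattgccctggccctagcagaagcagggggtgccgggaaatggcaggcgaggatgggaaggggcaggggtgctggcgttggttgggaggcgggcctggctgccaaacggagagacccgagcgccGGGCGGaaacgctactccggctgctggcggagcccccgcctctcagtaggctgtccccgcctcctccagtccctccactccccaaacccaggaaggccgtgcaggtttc
Psme2, chr14:55591102-55591351, minus strand: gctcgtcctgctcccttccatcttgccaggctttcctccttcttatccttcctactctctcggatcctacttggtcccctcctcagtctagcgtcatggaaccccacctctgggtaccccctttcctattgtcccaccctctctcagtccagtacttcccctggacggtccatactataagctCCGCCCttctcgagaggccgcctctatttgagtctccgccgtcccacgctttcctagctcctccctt
Psmb5, chr14:54617996-54618245, minus strand: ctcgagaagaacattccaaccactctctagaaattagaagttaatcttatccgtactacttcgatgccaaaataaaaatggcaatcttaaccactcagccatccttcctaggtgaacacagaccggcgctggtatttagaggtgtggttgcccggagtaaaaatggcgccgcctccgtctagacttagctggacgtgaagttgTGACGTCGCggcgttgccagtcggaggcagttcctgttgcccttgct
Psmb6, chr11:70525107-70525356, plus strand: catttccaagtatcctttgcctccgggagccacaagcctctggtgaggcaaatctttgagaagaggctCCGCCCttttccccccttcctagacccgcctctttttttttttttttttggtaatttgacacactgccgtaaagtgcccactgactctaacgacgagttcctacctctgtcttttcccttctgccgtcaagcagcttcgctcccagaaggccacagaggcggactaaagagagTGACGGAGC

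The motifs searched were GAAANNGAA (the interferon-stimulated core), TTCNNNGAA (the gamma-activated site), TGACNNNGC (the antioxidant response core), CCAAT (NF-Y) and GGGCGG (the GC box). Searched in the 250 bases before the start, TTCNNNGAA occurred in 1 of the 39 members with a RefSeq promoter entry, which was Psmb8, and in 6.69% of 17492 promoters of protein-coding genes. GAAANNGAA occurred in 3 members (Psmb3, Psmd4 and Psmd9) and in 6.93% of all promoters. TGACNNNGC occurred in 5 members, among them Psmb5 and Psmb6, and in 10.5% of all promoters. CCAAT occurred in 16 members and 36.3% of all promoters, and GGGCGG in 22 members and 42.7% of all promoters. Matches overlapped one another only in Psma4, Psma7 and Psmd9. The members held a median of 15 CpG dinucleotides in the 250 bases, against 10 over all promoters. Psmb8, Psmb9 and Psmb10 held 10, 12 and 3. These matches describe the letters of this window only. Psmb7, Psmb1, Psmb2, Psmc3, Psmd3, Psmd7 and Psma8 had no promoter entry.

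Nearly all members carried the mark in both genotypes. In the knockout 42 of 46 members were marked (91.3%, exact 95% interval 79.2 to 97.6%), beside 59.9% of all protein-coding genes. In the wild type 43 of 46 were marked (93.5%, 82.1 to 98.6%), beside 58.5% of all genes. The intervals cover counting error only. No member was marked in the knockout only (3.21% of all genes were), and 1 was marked in the wild type only (1.75% of all genes were), which was Psmb11. At the 42 members marked in both lists, the strongest region at each had a fold at percentile 83.1 or higher of all regions in the knockout list, and at percentile 77.8 or higher in the wild-type list, where Psmb8 was the lowest. These percentiles are among all regions, whose median fold was 8.02 in the knockout list and 7.81 in the wild-type list. Ranks among the strongest regions of other marked genes are not given here, so the percentiles do not set the members apart from such genes. The summit lay downstream of the 5′ end at 33 of the 42 in the knockout and at 31 in the wild type. The share over all marked genes is not given here, so these counts describe the members only.

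As a whole the members were covered to nearly the same length in both genotypes. Summed over the 46 members, covered length was 120911 bp in knockout cells and 119672 bp in wild-type cells, which is 1.04% more in the knockout. Among the 43 members covered in either list, 21 were longer in the knockout by any amount and 22 were shorter, with a median difference of −3 bp, beside −21 bp over the 14276 genes covered in either list. At least 500 bp was gained by 3 members (6.98%), beside 14.5% of all covered genes. At least 500 bp was lost by 4 members (9.30%), beside 9.79% of all covered genes. Neither share exceeded that of all genes. The other 36 members differed by less than 500 bp.

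**Figure D1:**
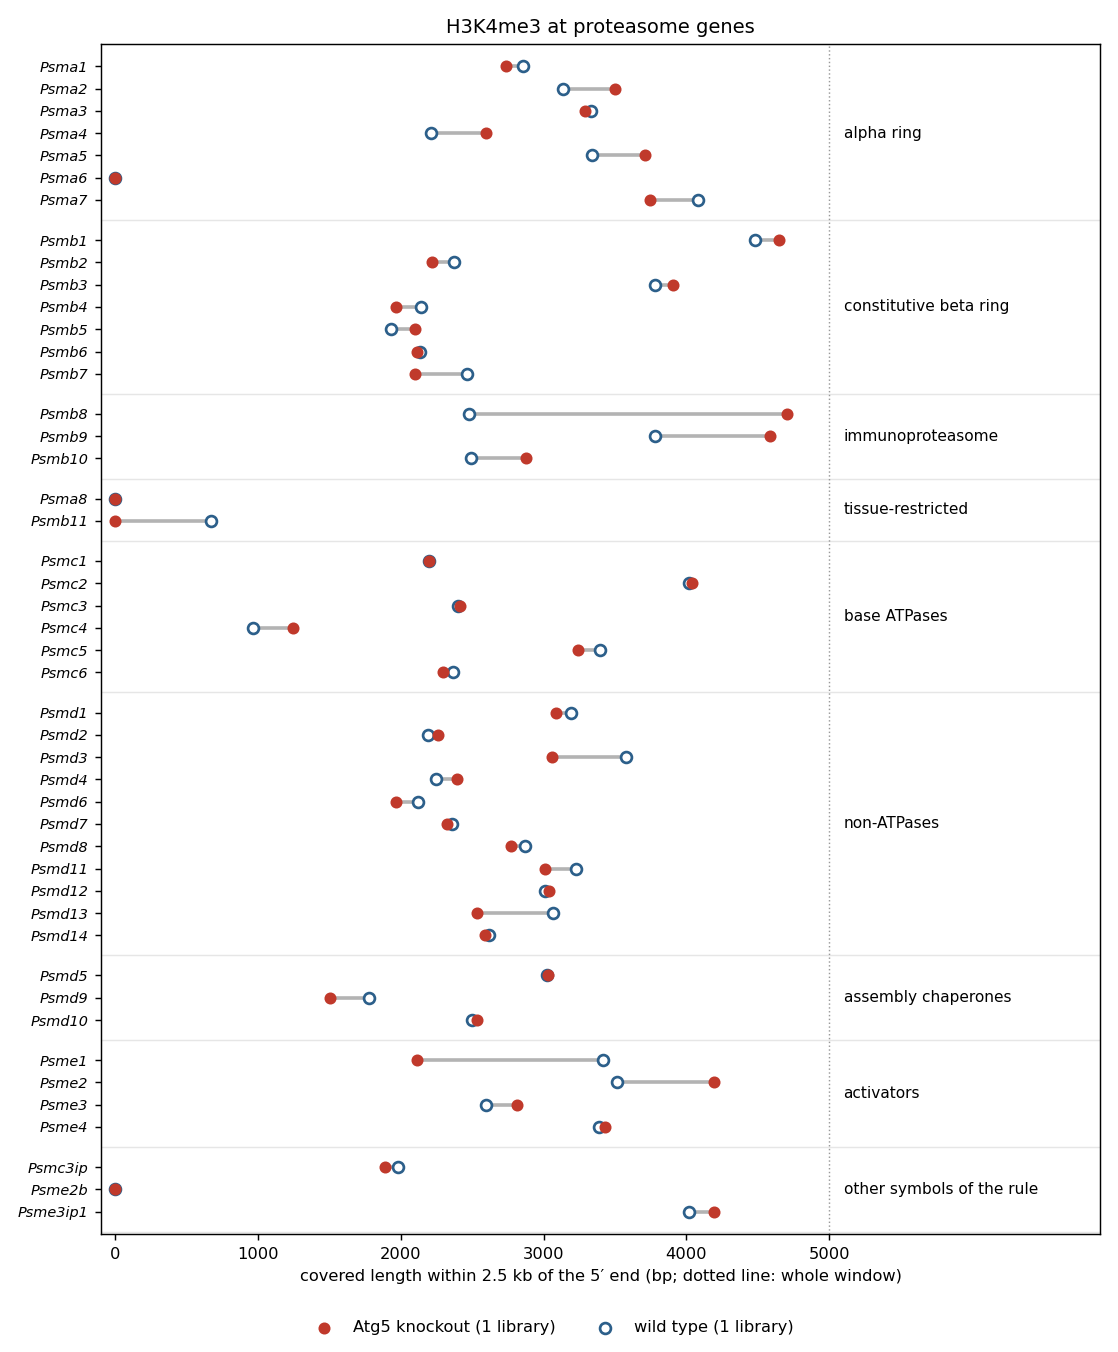
Covered length within 2.5 kb of the 5′ end (x axis, bp) of each of the 46 members (rows, by role), with the knockout library as a filled red point and the wild-type library as an open blue point. Most pairs of points lie close together, while Psmb8 reaches 4704 bp in the knockout against 2479 bp in the wild type, and Psme1 has 2114 bp in the knockout against 3413 bp in the wild type.

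The immunoproteasome genes were all longer in the knockout, and Psmb8 stood out. Psmb8 encodes the catalytic subunit also known as LMP7, and starts at chromosome 17, 34198195. It had 4704 bp covered in knockout cells and 2479 bp in wild-type cells, a difference of 2225 bp. In the knockout this was the highest value of all members, whereas in the wild type 25 members were above it. Of the genes covered in either list, 98.8% had a lower difference. The stretch within 1 kb of the start was wholly covered in both lists, so the extra length lay farther out, with 1263 bp upstream and 962 bp downstream. Counted from the start, with negative values upstream, the knockout region ran from −3218 to 1999 bp and a second one began at 2297 bp. The wild-type region ran from −1237 to 1241 bp. The summits lay close together, at 672 bp after the start in knockout cells and 643 bp in wild-type cells. The fold was 35.7 within the knockout list and 21.6 within the wild-type list. Beside this, the 10 T cell markers had a median difference of 4114 bp, and their part in the Psmb8 result was not tested.

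Psmb9 encodes the subunit LMP2 and starts at chromosome 17, 34187330, head to head with Tap1, which encodes a chain of the peptide transporter of antigen presentation. The 5′ end of Tap1 lies at −226 bp from that of Psmb9, so their windows share nearly all of their length. Psmb9 had 4583 bp in knockout cells and 3781 bp in wild-type cells, a difference of 802 bp. In both lists a single region spanned both starts, and it was 7265 bp wide in the knockout list and 2989 bp wide in the wild-type list. On the Tap1 side the wild-type list held, after a gap of 340 bp, a weaker region of 1237 bp with a fold of 4.34. When regions were joined over gaps of up to 1 kb, the Psmb9 difference was 462 bp and no longer reached 500 bp. It was 0 bp within 1 kb of the start, 2857 bp within 5 kb, and 1594 bp when regions with a −log10 q of at least 10, or equally long lists of the regions of highest −log10 q, were kept. Tap1 itself had 4809 bp in knockout cells and 4007 bp in wild-type cells.

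Psmb10 encodes the subunit MECL-1 and starts at chromosome 8, 105938392, apart from the MHC region that holds Psmb8 and Psmb9. It had 2875 bp in knockout cells and 2492 bp in wild-type cells. The difference of 383 bp did not reach 500 bp, and 81.6% of covered genes had a lower one. Its region was among the strongest in both lists, with a fold of 54.5 in the knockout (percentile 99.6) and 47.1 in the wild type (percentile 99.2). Thus the group held 2 of 3 genes past 500 bp, beside 14.5% of all covered genes. Both lay within a stretch of chromosome 17, and Psmb10 fell short of 500 bp. With regions joined over gaps of up to 1 kb, Psmb9 fell short as well, at 462 bp.

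**Figure D2:**
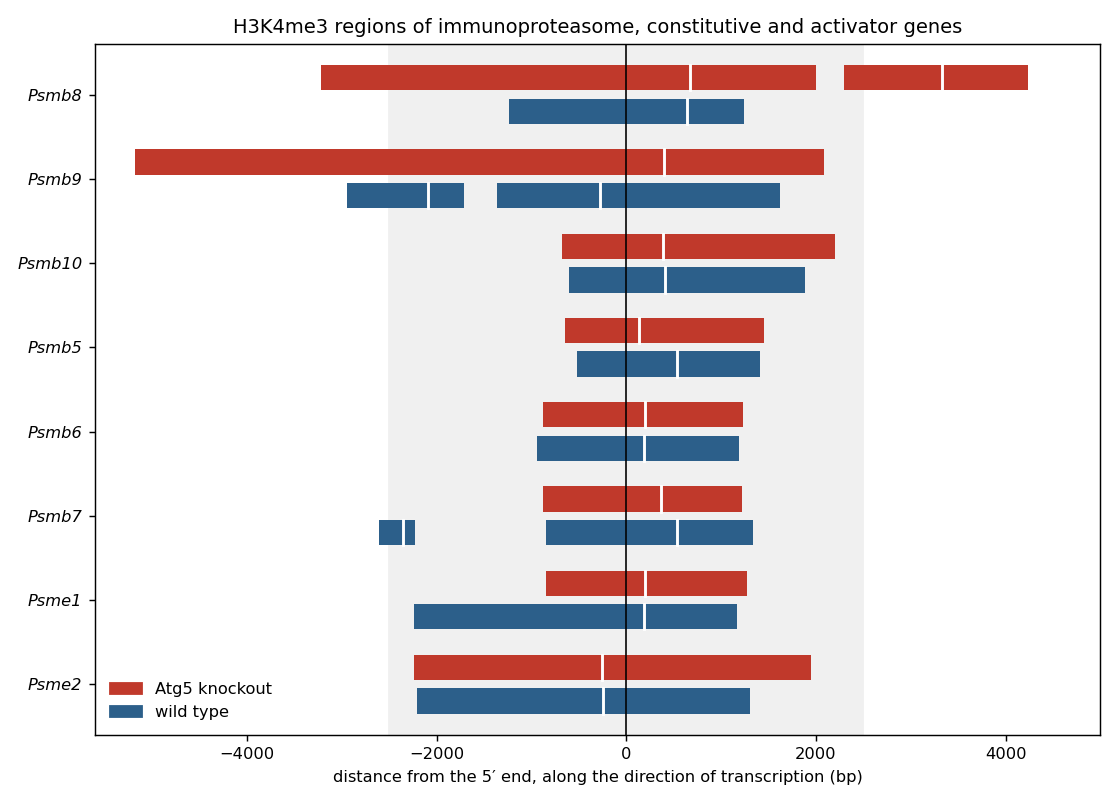
Regions (bars) around the 5′ end of the immunoproteasome genes, their constitutive counterparts and the PA28 genes, with the knockout list in red above the wild-type list in blue, white ticks at summits, and grey shading over the window of 2.5 kb either way. The x axis gives the distance from the 5′ end in bp along the direction of transcription. The knockout bar of Psmb8 starts at −3218 bp and the wild-type bar at −1237 bp, while the bars of Psmb5 and Psmb6 nearly match.

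Across the whole stretch from Psmb9 through Tap1 and Psmb8 to Tap2 (chromosome 17, 34182030 to 34216321), 20017 of 34292 bp were covered in knockout cells and 10723 bp in wild-type cells. The knockout region over the start of Psmb8 reached back over 2249 bp of Tap1, against 268 bp in the wild type. Tap2, which encodes the other chain of the transporter, had 3815 bp in knockout cells and 3094 bp in wild-type cells. In this stretch the knockout list had more regions than the wild-type list, and wider ones at the starts of Psmb9, Psmb8 and Tap2.

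**Figure D3:**
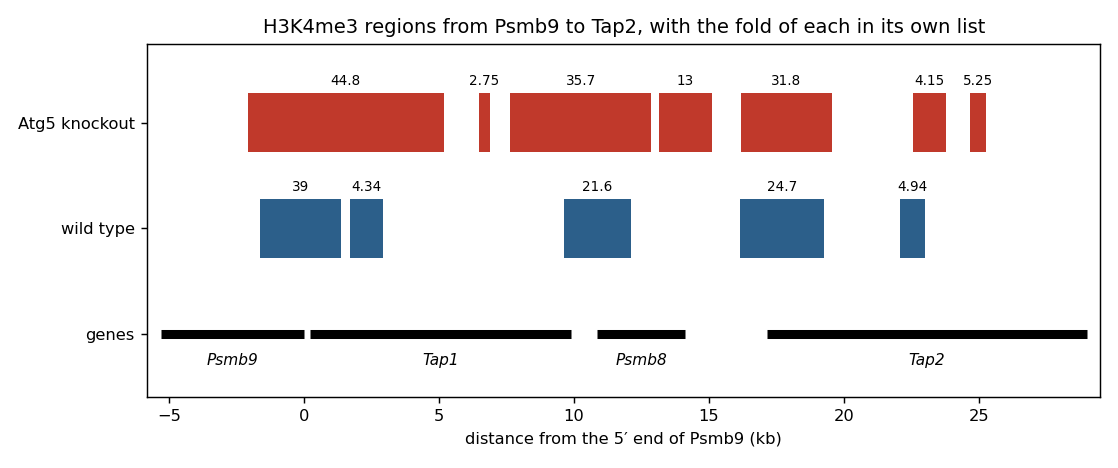
Regions of the knockout list (red, top) and of the wild-type list (blue, middle) from Psmb9 to Tap2, with the genes as black bars and the fold of each region within its own list above it. The x axis is the distance from the 5′ end of Psmb9 in kb. The knockout list covers 20017 bp of the stretch and the wild-type list 10723 bp.

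The subunits that the immunoproteasome replaces differed little between genotypes. Psmb5, which encodes the chymotrypsin-like subunit, had 2099 bp in knockout cells and 1933 bp in wild-type cells. Psmb6, the caspase-like subunit, had 2110 bp in knockout cells and 2132 bp in wild-type cells. Psmb7, the trypsin-like subunit, had 2098 bp in knockout cells and 2466 bp in wild-type cells, where a separate region of 381 bp with a fold of 5.20 lay upstream. Set against its counterpart, Psmb8 was covered over 2605 bp more than Psmb5 in the knockout and 546 bp more in the wild type. Psmb9 was covered over 2473 bp more than Psmb6 in the knockout and 1649 bp more in the wild type. Psmb10 was covered over 777 bp more than Psmb7 in the knockout and 26 bp more in the wild type. Psmb8 and Psmb9 were thus the longer of their pairs by more than 500 bp in both genotypes, and Psmb10 only in the knockout. Each gap was wider in the knockout, and in the pair of Psmb10 the shorter coverage of Psmb7 there added to it. Most of that shorter coverage came from the weak separate region upstream of Psmb7, part of which counted in the wild type. The region over the gene end of Psmb7 was 2098 bp wide in the knockout list and 2190 bp in the wild-type list. The end used for Psmb7 was placed by coverage.

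The other ring subunits also stayed below 500 bp at the gene ends used. Over Psma1 to Psma7 and Psmb1 to Psmb7, 13 of 14 genes were covered, with differences from −368 bp at Psmb7 to 383 bp at Psma4 and a median of −22 bp. The Psmb10 value of 383 bp equals the upper end of that range, and the values of Psmb8 and Psmb9 lie above it. Summed covered length was 38611 bp in knockout cells and 38242 bp in wild-type cells for these 14 genes, 0.965% more in the knockout. For Psmb8, Psmb9 and Psmb10 the sums were 12162 and 8752 bp, in the same order, 39.0% more in the knockout. Most of that excess came from Psmb8, with 2225 bp, beside 802 bp at Psmb9 and 383 bp at Psmb10. Psma6 entered the sums of the 14 genes with 0 bp in both lists. Among the alpha subunits Psma5 and Psma2 were 373 and 362 bp longer in the knockout, and at Psma7 the knockout had 3742 bp and the wild type 4079 bp. Psmb1 had the longest coverage of the beta ring, with 4650 bp in knockout cells and 4482 bp in wild-type cells, and shares its window with Tbp. Psmb4 had the shortest coverage of that ring in the knockout, with 1963 bp, and 2137 bp in the wild type.

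The alpha subunit gene Psma6 is an exception to this pattern. No region lay within 2.5 kb of its outer gene end (chromosome 12, 55384222) in either list. RefSeq lists another start 14603 bp inside the gene, at 55398825, and there the knockout had 3809 bp and the wild type 3004 bp. At that start the difference was 805 bp, about as large as that of Psmb9, so a gain past 500 bp was not limited to the immunoproteasome genes. This start was examined after the values at the outer end had been seen. Psma3 likewise has a listed start 5340 bp inside the gene, with 3129 bp in knockout cells and 3387 bp in wild-type cells, beside 3288 and 3332 bp at its outer end.

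The ATPases of the cap, which unfold substrates, differed by less than 500 bp throughout. All 6 Psmc genes were marked in both lists, their differences ran from −149 bp at Psmc5 to 282 bp at Psmc4, and the median was 4 bp. Psmc2 had the longest coverage, with 4036 bp in knockout cells and 4019 bp in wild-type cells. Psmc4 had the shortest, with 1244 bp in knockout cells and 962 bp in wild-type cells, where the region began 2 bp downstream of the 5′ end. At all other members marked in that list, and at all 42 marked in the knockout, the 5′ end itself lay under a region.

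The 11 non-ATPase subunits of the cap were all marked in both lists, and 8 of them were shorter in the knockout by any amount, with a median of −101 bp. Over all genes covered in either list, 7552 of 14276 were shorter by any amount, with a median of −21 bp. Psmd13, a subunit of the lid, had 2536 bp in knockout cells and 3065 bp in wild-type cells, a difference of −529 bp. Psmd3, also of the lid, had 3059 bp in knockout cells and 3577 bp in wild-type cells, a difference of −518 bp. Both lie just past 500 bp. The Psmd13 difference turned round when regions were joined over gaps (435 bp) and within 5 kb (358 bp). The highest value of the group was 152 bp at Psmd4, the ubiquitin receptor also known as S5a. Psmd14, which removes ubiquitin from substrates, had 2591 bp in knockout cells and 2618 bp in wild-type cells. The assembly chaperone genes Psmd5, Psmd9 and Psmd10, which help to build the base of the cap, differed by 3, −272 and 31 bp.

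The PA28 activator genes moved in opposite directions. Psme1 and Psme2 encode the alpha and beta chains of PA28, which interferon gamma is known to induce, and lie 12607 bp apart on chromosome 14. Psme2 had 4196 bp in knockout cells and 3514 bp in wild-type cells, a difference of 682 bp, of which 648 bp lay downstream of the start. Psme1 had 2114 bp in knockout cells and 3413 bp in wild-type cells, a difference of −1299 bp, and 0.728% of covered genes had a lower value. The missing stretch lay upstream of Psme1, where the wild-type region started 1399 bp before the knockout region. It reached over 701 bp of the neighbouring gene Fitm1. Downstream of its start Psme1 was 100 bp longer in the knockout, and the summits stood at 200 bp in knockout cells and 189 bp in wild-type cells. Within 1 kb of the start the Psme1 difference was −157 bp, and that of Psme2 was 0 bp. Psme3, the nuclear PA28 gamma chain, had 2815 bp in knockout cells and 2596 bp in wild-type cells. Psme4, the PA200 activator, had 3426 bp in knockout cells and 3386 bp in wild-type cells.

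**Figure D4:**
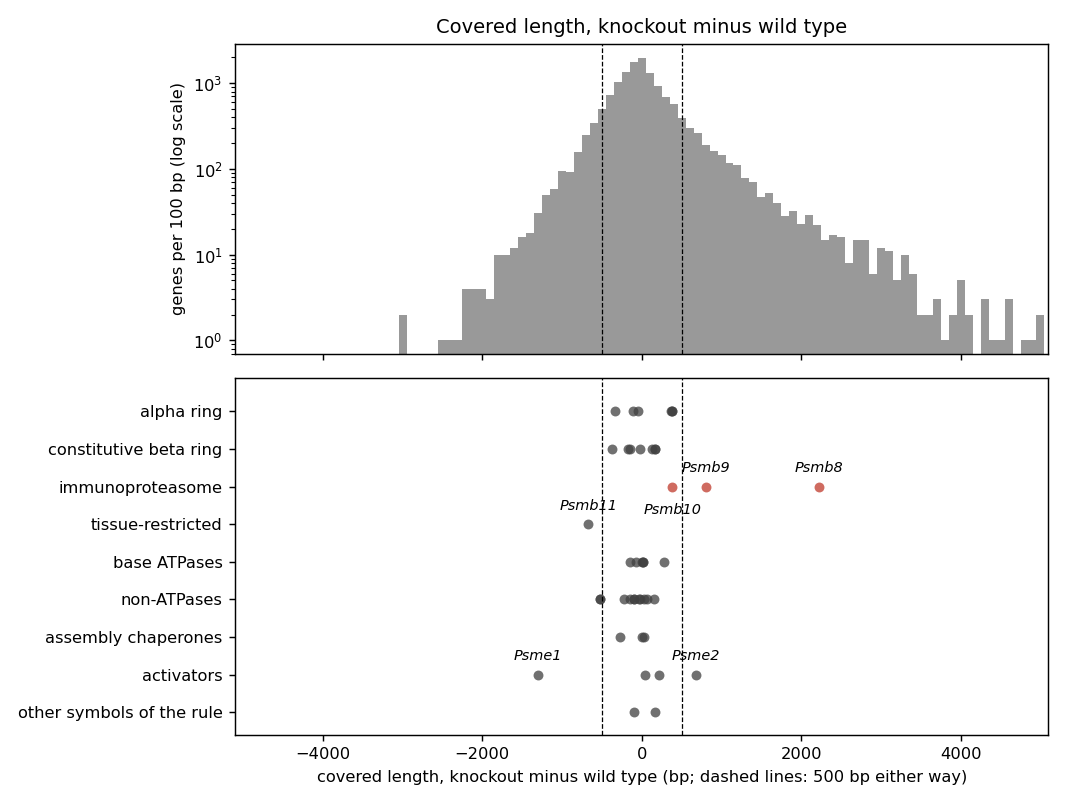
Top, number of genes (log scale) by how much longer the knockout coverage was than the wild-type one, over the 14276 genes covered in either list in bins of 100 bp. Bottom, the same difference for the 43 covered members by role, with immunoproteasome genes in red and dashed lines at 500 bp either way. Psmb8 lies at 2225 bp and Psme1 at −1299 bp, while 36 members lie between the lines.

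Subunits restricted to other tissues had little or no mark. Psma8, which takes part in the proteasome of spermatocytes, had 0 bp in both lists. Psmb11, the beta subunit of the thymoproteasome of thymic epithelium, had 0 bp in knockout cells and 672 bp in wild-type cells. That wild-type region had a fold of 5.46, at percentile 33.7 of its list, and it was absent when regions with a −log10 q of at least 10 were kept. The rule also takes in 3 symbols outside these role groups. Psmc3ip, which acts in meiotic recombination, had 1887 bp in knockout cells and 1979 bp in wild-type cells. Psme3ip1, which encodes a partner of PA28 gamma, had 4190 bp in knockout cells and 4020 bp in wild-type cells and shares its window with Rspry1. Psme2b had 0 bp in both lists.

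Genes that work with the proteasome but are not members were taken from a list of 29 genes. Of these, 27 were marked in each list, and 28 were covered in either list. At least 500 bp was gained in the knockout by 6 of 28 (21.4%, beside 14.5% of all covered genes) and lost by 0 of 28 (beside 9.79%), with a median difference of 20.5 bp. The 6 genes include Tap1, Tap2, Tapbp and Nlrc5 of MHC class I presentation, with differences of 802, 721, 699 and 523 bp. Nfe2l2, the factor NRF2, had 4622 bp in knockout cells and 3800 bp in wild-type cells. B2m, the light chain of MHC class I, differed by 33 bp and Irf1, an interferon-induced factor, by 112 bp. Nfe2l1, the factor that raises proteasome genes when the proteasome is inhibited, had 3887 bp in knockout cells and 3794 bp in wild-type cells. The assembly factor genes Pomp, Psmg1, Psmg2, Psmg3 and Psmg4 differed by −346, −34, −230, −66 and 8 bp. The 5′ ends of Tap2 and Nlrc5 were placed on the gene end with more coverage. Tap2, Tapbp and Nlrc5 thus shared the direction of Psmb8 and Psmb9, with Tap2 in the same stretch as those genes. The Tap2 window also took in the end of a knockout region of 1937 bp that began inside Psmb8. The region over the Tap2 start itself was 3365 bp wide in the knockout list and 3094 bp in the wild-type list. Tap2 therefore passed 500 bp only with the region from Psmb8, and its value is not separate from that gene. Tap1, counted among the 6, shares nearly all of its window with Psmb9, so its value adds no separate observation. None of the 5 assembly factors gained 500 bp. Beside these values, the T cell markers had a median difference of 4114 bp and the myeloid markers one of −410.5 bp, and their part in the result was not tested.

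At 11 of 46 members the 5′ end of another protein-coding gene lay within 2.5 kb, so the covered length there is shared. Among these were Psmb9 with Tap1, Psme2 with Rnf31 at −612 bp, Psmd13 with Sirt3 at −85 bp, Psma2 with Mrpl32 at −205 bp, Psma7 with Ss18l1 at −19 bp, and Psmc2 with Dnajc2 at −11 bp. For Psmb8 and Psmb10 no other 5′ end lay in the window. For Psma8, Psmb1, Psmb2, Psmb7, Psmc3, Psmd3 and Psmd7 the gene end with more coverage was used, since no strand was at hand, and it may not be the 5′ end.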

How the data were processed

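H3K4me3 was profiled by native chromatin immunoprecipitation after digestion with micrococcal nuclease, per the labels' protocols. Of the 6 samples of the series, the 2 H3K4me3 region lists were used, and H3K27me3 and input were not analysed here. Regions were called with MACS2 on GRCm38 (mm10), per the submitters' processing notes. The sources used here give neither version, aligner, filters nor use of the input. The deposited lists give region starts, ends and summits, which were the values measured here. The deposited fold is a ratio of summit reads to local background, which may come from the same library or from the input. The −log10 p-value and −log10 q-value deposited beside it belong to the same summit. The lowest −log10 q was 2.02 in the knockout list. The deposited score, which follows the −log10 q, was not used.

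Positions came from the RefSeq gene table (GRCm38.p6), limited to chromosomes 1 to 19, X and Y. The 5′ end was the gene end given by the strand in the RefSeq promoter table for 17492 of 21887 genes (39 of 46 members), and otherwise the end with more coverage, summed over both lists. Overlapping counted from 1 bp. Depth is unknown, so no interval on covered length is given. Members, lists and settings were chosen with earlier results of these data known. The text names the immunoproteasome genes and the subunits they replace, tissue-restricted subunits, activators, members marked in 1 list or neither, the 10 largest differences and the extremes of each role group; Psma2, Psma3, Psmb1, Psmb4, Psmc2, Psmd5 and Psmd14 were added after their values were seen. Other settings were tried, 8 as first chosen and 2 added after the data were seen. Work was done in Python 3.11.15 (NumPy 2.4.6; pandas 2.3.3), with exact intervals from SciPy 1.17.1 and figures from Matplotlib 3.10.9. The coverage step was tested on simulated data against a count per base. The values of 1 gene of the list of other pathway genes are not reported here.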

Additional observations from a re-analysis of the deposited data

How the results depend on the processing

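The counts of marked members, the median difference of all members (−15 to 11 bp), that of the constitutive ring subunits (−22 to 53.5 bp) and the Psmb10 difference (72 to 383 bp) stayed on the same side of their limits in all 9 alternatives tried for each. Within 1 kb of the 5′ end, 0 members were longer and 1 was shorter by 500 bp, beside 7.68% and 2.7% of all covered genes. There the differences of Psmb8 and Psmb9 were 0 bp, since these windows were full in both lists. With regions joined over gaps of up to 1 kb, Psmb9 differed by 462 bp and Psmd13 by 435 bp, and within 5 kb Psmd13 differed by 358 bp, against −529 bp in the report; the cause was not tested. Counting from 300 bp, which was chosen after seeing the data, gave 7 longer and 6 shorter members, beside 22.18% and 20.21% of all covered genes. With the listed start of most coverage, also added later, Psma6 joined the longer members with 805 bp. Psmb9 differed by 1594 bp with regions limited to a −log10 q of 10 or more, and also with both lists shortened to the same number of regions, and by 2857 bp within 5 kb. In all alternatives but that within 1 kb, Psmb8 differed by at least 2225 bp, up to 5068 bp within 5 kb. No paired analysis was possible because each genotype has 1 library. Unknown depth limits every comparison of region edges.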
